A study of Homo sapiens with 6 samples.

Results

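The genes described here are 58 named genes that lie along human chromosome 2, from EIPR1 near the end of the short arm (2p) to HDAC4 near the end of the long arm (2q). They were chosen by name, with the measured differences between DKK1-SE-KO and WT samples already known, out of 62703 genes in the deposited table, so their values are given as a description. All 58 passed the filter on low counts and were placed on chromosome 2 by GENCODE version 44, where 975 of the 15179 tested genes lie. The samples were PANC-1 cells, an established line of human pancreatic ductal carcinoma, sequenced as stranded mRNA libraries. The WT group (3 samples, labelled as biological replicates) carried the intact DKK1 super-enhancer, and the DKK1-SE-KO group (3 samples, labelled likewise) carried a homozygous CRISPR/Cas9 deletion of its component enhancer e1, which lies on chromosome 10. The study obtained the homozygous deletion in a single subclone, so the DKK1-SE-KO samples were replicates of one clone, and the deletion and other properties of that clone cannot be told apart. The comparison of both groups asks which transcripts differ after e1 was deleted, and the question for chromosome 2 is how far its genes shifted together and which of them departed from their neighbours.

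Chromosome 2 is the second largest human chromosome. Its genes belong to unrelated pathways, and neighbours usually have their own promoters, so a gene's position says little about its function. The named genes include subunits of DNA repair, replication, splicing and protein-folding machines whose partners are encoded on other chromosomes, which allows a comparison of a gene both with its neighbours along the DNA and with its partners in the cell. In pancreatic cancer cells, several of them are studied for growth and invasion, such as the kinase ROCK2, the Hedgehog effector GLI2 and the Ras activator SOS1.

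Total expected counts were 21822314, 16475810 and 18803154 in WT replicates 1, 2 and 3, and 17359835, 20098086 and 17804764 in DKK1-SE-KO replicates 1, 2 and 3. DKK1 had a TPM, the authors' transcript abundance scaled by length and library total, of 229, 245.8 and 199 in the WT samples and 66.8, 79.8 and 82.7 in the DKK1-SE-KO samples, with no overlap, and differed by -1.45 on the log2 scale (standard error 0.112). The 6 ductal epithelial markers (KRT7, KRT8, KRT18, KRT19, EPCAM, SOX9) summed to a TPM of 1901, 1954 and 1993 in WT and 3192, 3128 and 2708 in DKK1-SE-KO, with KRT8 the most abundant, 3 of the 6 higher and 2 lower in DKK1-SE-KO. The 4 acinar markers summed to a TPM of at most 0.20 in any sample, the 3 endocrine markers to at most 0.33 and the 3 endothelial markers to at most 0.22. Of the 4 fibroblast markers only COL1A1 was tested. It carried nearly all of their summed TPM of 92.2, 102.7 and 103.9 in WT and 12.3, 9.3 and 16.2 in DKK1-SE-KO, whereas DCN, LUM and PDGFRB stayed below a TPM of 1. Of the 3 leukocyte markers PTPRC and CD3E were at or near 0, and the summed TPM of 40.9 to 46.5 in WT and 64.8 to 67.9 in DKK1-SE-KO came from CD68. The part of these marker differences in the results for chromosome 2 was not tested, and a change in the number of cells of a type and a change in RNA per cell cannot be told apart in bulk samples.

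Most of the named genes were lower in DKK1-SE-KO cells. In edgeR's quasi-likelihood test with Benjamini-Hochberg adjustment, 37 of the 58 had an adjusted p-value under 0.05 (39.3% of all tested genes did), of which 35 were lower (19.5% of all tested genes) and 2 were higher (19.8%). The TPM values of both groups did not overlap for 39 members that were lower (26.7% of all tested genes) and for 2 that were higher (17.5%), ADI1 and HS1BP3. The study set limits of 1.2 on the size of the fold change and 0.05 on the raw p-value. With the limit of 1.2 applied here to the log2 fold change, these were met by 4 members (8.66% of all tested genes), all of them lower (3.7%). These 4 were TRIB2, LTBP1, RIF1 and SPAST. On that scale no member met them upwards (4.96% of all tested genes did), since the highest log2 fold change among the members was 0.49, although by edgeR's raw p-value alone 3 members were higher. Applied to the linear fold change, where 1.2 is a log2 difference of 0.26, a choice made after seeing the data, the limits were met by 41 members (47.6% of all tested genes), of which 38 were lower (23.3%) and 3 higher (24.3%), namely ADI1, EPAS1 and EIF2B4.

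The log2 fold changes of the 58 members had a median of -0.53, with the middle 50% of members between -0.79 and -0.13, and 46 of them (79.3%) were negative. Over all 15179 tested genes the median was 0.03. Among the 35 members that fell, log2 fold changes ran from -1.83 for TRIB2 to -0.31 for IDH1, the NADP-dependent isocitrate dehydrogenase of the cytosol, and the mean TPM changed by between -72.3% and -26.99%. The 21 members without a call had log2 fold changes between -0.77 (TNS1, a focal adhesion protein, with 6 to 21 counts per sample) and 0.49 (EMILIN1, with 5 to 17 counts). Without DKK1-SE-KO replicate 2, and likewise without WT replicate 2, KIDINS220, ASAP2, ORC4, ATF2, CASP8 and IDH1 were no longer called lower. Leaving out WT replicate 1 had this effect for ORC4, ATF2 and IDH1, and leaving out WT replicate 3 or DKK1-SE-KO replicate 1 for ASAP2 and IDH1. IDH1 was called lower in 7 of the 16 alternatives and had -0.17 with the GC-content offset. By limma on log2 TPM, ASAP2, ATAD2B, ATF2 and CUL3 were not called, and FEZ2 was not with the offset and the replicate block together.

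**Figure D1:**
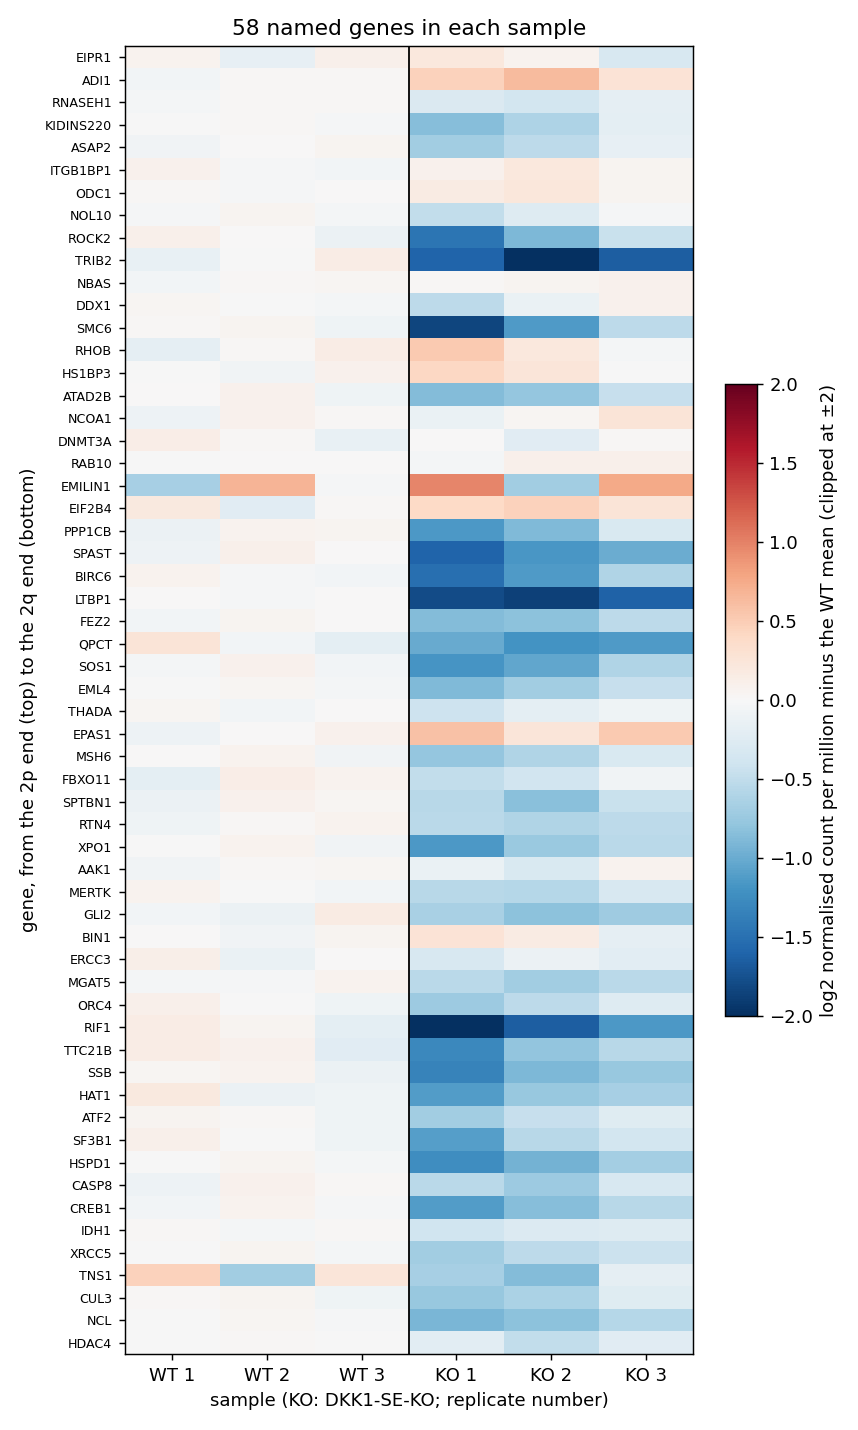
Log2 normalised count (scaled to library size) of each of the 58 named genes in each sample, as the difference from the mean of the 3 WT samples (colour scale clipped at 2 in either direction), with genes ordered from the 2p end at the top to the 2q end at the bottom. The WT columns, which are centred on their own mean by construction, stay near 0. The DKK1-SE-KO columns are mostly below it, with median differences of -0.66, -0.61 and -0.31 in replicates 1, 2 and 3.

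The shift was visible in each DKK1-SE-KO sample but not to the same degree. Relative to the WT mean, the median member differed by -0.66, -0.61 and -0.31 on the log2 scale in DKK1-SE-KO replicates 1, 2 and 3, and by between -0.01 and 0.02 in the WT replicates. The WT mean is taken from these same WT samples, so their differences are centred by construction and are no control for the shift. Replicate 3 was the DKK1-SE-KO sample nearest to WT: among the 35 members that fell, it had the highest DKK1-SE-KO TPM in 31, whereas replicate 1 had the lowest in 25. It was also the DKK1-SE-KO sample with the weakest dependence on base composition. Across 15167 genes, which are not independent replicates, the log2 difference from the WT mean had a Spearman correlation with the GC content of the transcript of 0.53, 0.40 and 0.14 in DKK1-SE-KO replicates 1, 2 and 3, and of -0.20, -0.19 and 0.36 in WT replicates 1, 2 and 3. For the WT replicates these again rest on differences from their own mean. The transcripts of the members were poor in GC, with a median of 42.96% against 48.2% over all tested genes. When each library's dependence on GC content was removed with an offset, the median of the members was -0.36 (0.01 over all tested genes), 33 members were lower and 4 were higher, and 31 of the 35 members that fell were also called lower with it. The 4 that were not were ORC4, ATF2, IDH1 and CUL3, while BIN1 (-0.23) and HDAC4 (-0.48) were then called lower. The 4 called higher were ADI1 (0.59), RAB10 (0.29), DDX1 (0.28) and ITGB1BP1 (0.27), and EPAS1 was not. With the replicate block added to the offset, 31 members were lower and 3 higher, and BIN1 and ITGB1BP1 were not called. The shares of all tested genes given above belong to the fit without the offset, and no such share stands beside these counts. The part of library differences in the remaining shift was not tested.

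Chromosome 2 as a whole moved in the same direction. Its 917 tested genes outside the named set had a median log2 fold change of -0.39, 75.2% of them were negative, and 407 were lower and 66 higher at an adjusted p-value under 0.05 in edgeR's test. Tested genes on the other chromosomes had a median of 0.06. Both arms were alike, with medians of -0.38 for 360 other genes of 2p and -0.39 for 557 other genes of 2q. Among the members, 18 of the 37 on 2p fell and 2 rose, with a median of -0.31, whereas 17 of the 21 on 2q fell, with a median of -0.59.

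The median of the 975 tested genes of chromosome 2, members included, was -0.40 and the lowest of the 23 chromosomes examined, followed by chromosome 10 with -0.32 and chromosome 13 with -0.21. Chromosome 20 had the highest median, 0.38. With the GC-content offset chromosome 2 had a median of -0.30, behind chromosome 10 with -0.31, while chromosome 13 came to -0.03. Among genes with like GC content the difference was also seen: in the bin of lowest GC content, up to 41.8%, the other chromosome 2 genes had a median of -0.68 against -0.31 on the other chromosomes, and in the bin from 56.3% upwards, -0.07 against 0.31. Across the 58 members the Spearman correlation of the log2 fold change with GC content was 0.41, as it was for the other chromosome 2 genes (0.41) and over all tested genes (0.40), and genes are not independent replicates in these values.

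**Figure D2:**
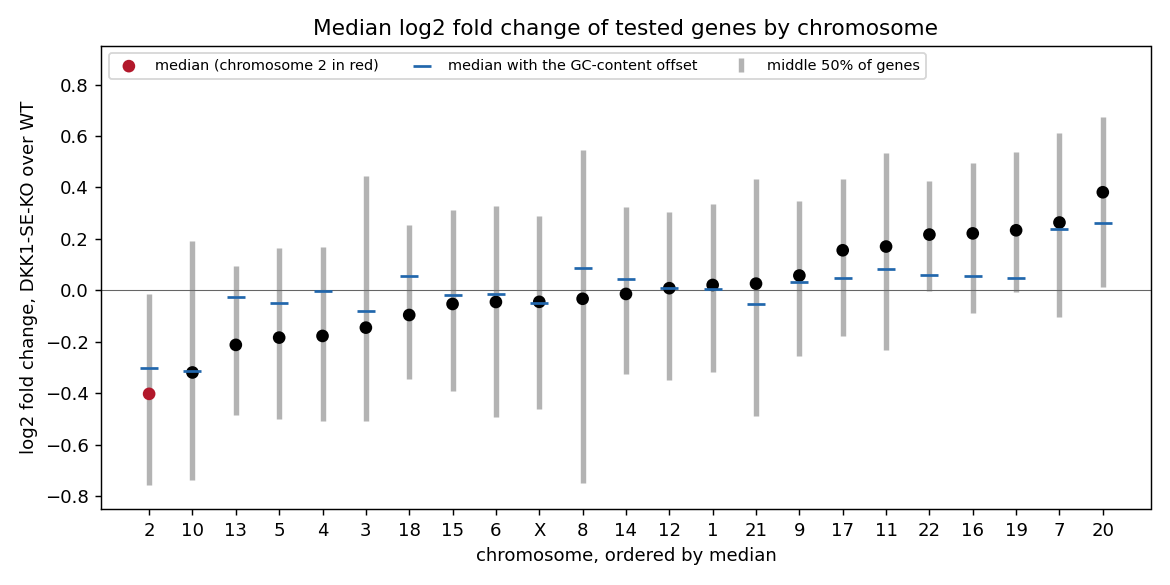
Median log2 fold change (DKK1-SE-KO over WT) of the tested genes of each chromosome, with grey bars for the middle 50% of its genes and blue dashes for the median with the GC-content offset. Chromosome 2, in red, has the lowest median without the offset (-0.40) and lies beside chromosome 10 with it (-0.30 and -0.31).

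Along the chromosome the shift was not even. In 10 Mb bins of the other tested genes, the bin from 20 to 30 Mb had a median log2 fold change of 0.16 over 64 genes, and the next bin, from 30 to 40 Mb, had -0.56 over 40 genes, 85% of them negative. With each library's dependence on GC content removed these medians were -0.03 and -0.25, a smaller step, and the median GC content of the transcripts was 51.7% and 40.2% in these bins. From there the medians stayed negative in each bin to the 2q end, with the lowest value in a well-filled bin from 60 to 70 Mb (-0.70, 53 genes). The offset for GC content turned the bins from 140 to 150 Mb (-0.16 to 0.03) and from 220 to 230 Mb (-0.16 to 0.02, 22 genes) above 0. At the 2p end, the bin from 0 to 10 Mb was also negative without the offset (-0.095, 21 genes) and above 0 with it (0.045). The chromosome was divided into 3 stretches after these values were seen. From 0 to 30 Mb, 102 other genes had a median of 0.15, from 30 to 210 Mb 657 genes had -0.49, and from 210 Mb to the end 158 genes had -0.16. The step at 30 Mb was also seen among the members, while their median after 210 Mb was farther below 0 than that of the other genes there: in the first stretch 7 of 22 fell and 1 rose (median -0.04), in the middle one 25 of 31 fell and 1 rose (median -0.65), and in the last one 3 of 5 fell and all 5 were negative (median -0.54). With the GC-content offset the medians of the other genes were -0.02, -0.36 and -0.25, so that the first stretch was nearer to the others than without it and the last one nearer to the middle one. Bins from 10 to 20 Mb (17 genes), 50 to 60 Mb (19 genes) and 140 to 150 Mb (9 genes) were thinly filled.

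For each member, the median log2 fold change of the other tested genes that start within 5 Mb on either side was taken as its local level. These local medians rested on 10 to 86 genes and ran from -0.78 to 0.19. Of the 58 members, 41 lay below their local median. The median difference over all 58 was -0.19, and -0.12 with the GC-content offset. The members were chosen with their values known and the neighbours by position alone. This count and this median are therefore a description of the chosen genes. At least 0.5 below their neighbours were 13 members, and 1 member, EPAS1, was at least 0.5 above. The largest departures were TRIB2 (-1.80 from its local median), SMC6 (-1.26), RIF1 (-1.13, as for LTBP1) and SPAST (-1.11), followed by ATAD2B (-0.87) and ROCK2 (-0.83). Over the same 5 Mb windows, the GC-content offset gave 10 members that lay at least 0.5 below and 3 that lay at least 0.5 above (AAK1 by 0.59, EPAS1 by 0.55 and ADI1 by 0.52), and the departures of SMC6, SPAST, ATAD2B and ROCK2 were -0.89, -0.83, -0.39 and -0.64, whereas those of TRIB2, LTBP1 and RIF1 were -1.999, -1.60 and -1.06. The windows of members that start within 5 Mb of the step at 30 Mb, among them SPAST, BIRC6, LTBP1 and PPP1CB, hold genes from both sides of it. Against the nearest 20 other tested genes on either side, a neighbourhood chosen after seeing the data, SPAST departed by -0.70 (-0.72 with the GC-content offset), PPP1CB by -0.51 (-0.20) and BIRC6 by -0.45 (-0.66), which within 5 Mb departed by -0.66 (-0.73), whereas the departures of TRIB2, RIF1, SMC6 and LTBP1 were -1.87, -1.26, -1.18 and -1.17. By that measure 11 members lay at least 0.5 below and 3 at least 0.5 above (EPAS1, ADI1 and AAK1), and with the offset added 12 lay at least 0.5 below and SMC6 departed by -0.65. Within 5 Mb, members such as FEZ2 (-0.08), XPO1 (-0.07), CASP8 (-0.03) and ORC4 (-0.03) had nearly the value of their neighbourhood, although each of them fell by edgeR's test. These differences were 0.02, 0.16, -0.12 and 0.02 with the offset.

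**Figure D3:**
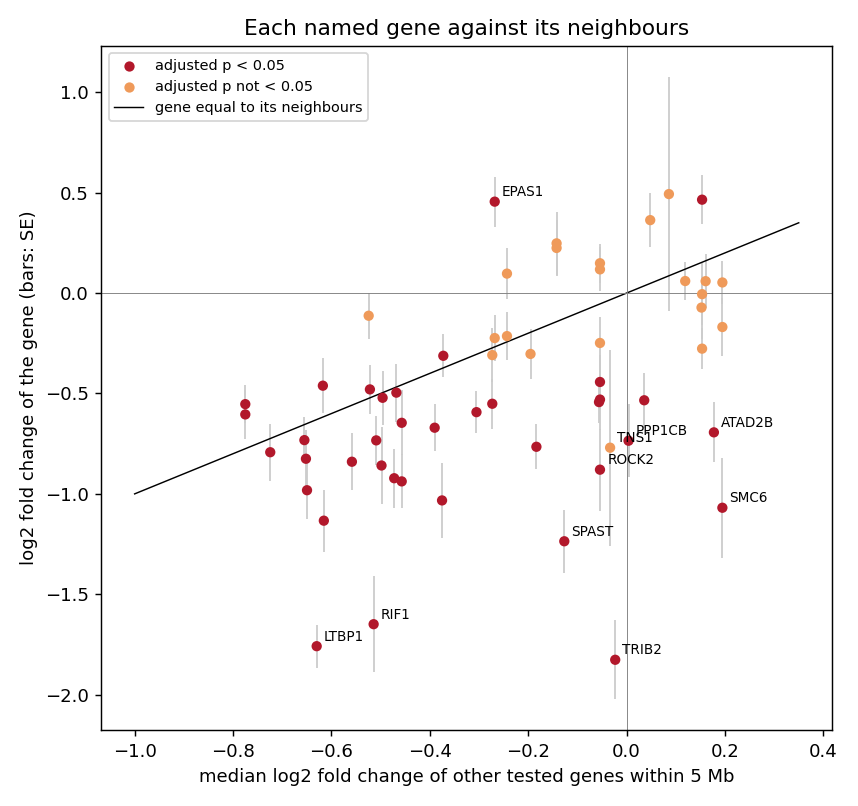
Log2 fold change of each named gene (vertical axis, bars show the standard error) against the median log2 fold change of the other tested genes within 5 Mb (horizontal axis), with the line on which a gene equals its neighbours. TRIB2, LTBP1, RIF1, SPAST and SMC6 lie farthest below the line, and EPAS1 lies 0.72 above it.

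The 4 members that met the limits on the log2 scale differ in their neighbourhoods. TRIB2 (ENSG00000071575, chr2:12716910-12742734, plus strand, hg38) encodes a pseudokinase that brings proteins to the ubiquitin ligase COP1. Its expected counts were 211, 172 and 220 in WT and 54, 44 and 58 in DKK1-SE-KO samples, and its TPM was 6.44, 3.98 and 8.62 in WT and 3.05, 2.34 and 2.36 in DKK1-SE-KO. All DKK1-SE-KO values were below all WT values on both scales. The log2 fold change of the counts was -1.83 (standard error 0.196, edgeR adjusted p = 6.02e-05), while the ratio of mean TPM, which the authors computed with transcript lengths, gave -1.30. Its neighbours had a median of -0.02.

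LTBP1 (ENSG00000049323, chr2:32946953-33399509, plus strand) encodes a matrix protein that binds latent TGF-beta. Its TPM was 31.8, 31.7 and 33.7 in WT and 8.32, 8.21 and 10.4 in DKK1-SE-KO, so that even the highest DKK1-SE-KO value was far below the lowest WT value. It had the smallest adjusted p-value of the members, with a log2 fold change of -1.76 (standard error 0.108, edgeR adjusted p = 1.16e-06). The other tested genes within 5 Mb of it, which lie on both sides of the step at 30 Mb, had a median of -0.63, and LTBP1 differed from that median by -1.13.

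RIF1 (ENSG00000080345, chr2:151409883-151508013, plus strand) encodes a protein that controls replication timing and the choice of the repair pathway at DNA breaks. Its TPM was 14.2, 14.04 and 10.1 in WT and 2.47, 3.50 and 6.11 in DKK1-SE-KO, with no overlap and with replicate 3 closest to WT. The log2 fold change was -1.65 (standard error 0.238, edgeR adjusted p = 0.000408) and -1.20 with the GC-content offset. RIF1 shares 22678 bp with NEB on the opposite strand, whose log2 fold change was -0.99, and whether the counting used strand is not given in the sources used here, so reads of both genes cannot be told apart. SPAST (ENSG00000021574, chr2:32063556-32157637, plus strand) encodes spastin, an enzyme that severs microtubules. Its TPM was 15.6, 19.7 and 18.5 in WT and 6.65, 7.66 and 8.86 in DKK1-SE-KO, again without overlap. Its log2 fold change was -1.24 (standard error 0.156, edgeR adjusted p = 0.000166), and -0.93 with the GC-content offset, where it no longer met the limit of 1.2 on the log2 scale.

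Promoters of these 4 genes and of EPAS1, the member farthest above its neighbours without the GC-content offset, are shown because the data turn on these members. Of the 58 members, 54 matched a promoter of RefSeq (GRCh38.p14), and 102 promoters were found for them, since some genes have several starts. ATF2, EMILIN1, NOL10 and XRCC5 had no match. The 250 bases before each start were searched on both strands for AP-1 (TGANTCA), the cAMP response element (TGACGTCA), the E-box (CACGTG), the CCAAT box (CCAAT) and the TATA box (TATAAA), none of which contains another, and matches are in capitals, with ATTGG standing for CCAAT on the other strand. For LTBP1, which has 3 starts, the most upstream one is shown. The windows are chr2:12716686-12716935 for TRIB2, chr2:32946703-32946952 for LTBP1, chr2:151409652-151409901 for RIF1, chr2:32063306-32063555 for SPAST and chr2:46297157-46297406 for EPAS1, all on the plus strand and written 5' to 3'. In GENCODE version 44, 26 bases of the TRIB2 window and 19 of the RIF1 window lie in an annotated exon, and the other windows lie in none.
TRIB2: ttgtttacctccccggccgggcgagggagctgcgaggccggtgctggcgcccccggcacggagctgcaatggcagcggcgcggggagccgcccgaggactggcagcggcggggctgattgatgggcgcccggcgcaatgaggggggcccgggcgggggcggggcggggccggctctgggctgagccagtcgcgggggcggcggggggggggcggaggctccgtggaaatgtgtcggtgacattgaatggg
LTBP1: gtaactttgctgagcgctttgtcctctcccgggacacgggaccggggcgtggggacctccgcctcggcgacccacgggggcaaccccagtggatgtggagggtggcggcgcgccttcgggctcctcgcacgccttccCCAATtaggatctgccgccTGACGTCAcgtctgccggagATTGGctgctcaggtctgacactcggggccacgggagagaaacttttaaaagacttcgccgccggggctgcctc
RIF1: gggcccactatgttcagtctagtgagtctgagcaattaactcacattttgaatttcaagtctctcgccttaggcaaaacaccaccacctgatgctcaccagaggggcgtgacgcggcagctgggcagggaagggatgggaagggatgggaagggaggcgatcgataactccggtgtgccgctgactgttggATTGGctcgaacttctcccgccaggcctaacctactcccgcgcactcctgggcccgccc
SPAST: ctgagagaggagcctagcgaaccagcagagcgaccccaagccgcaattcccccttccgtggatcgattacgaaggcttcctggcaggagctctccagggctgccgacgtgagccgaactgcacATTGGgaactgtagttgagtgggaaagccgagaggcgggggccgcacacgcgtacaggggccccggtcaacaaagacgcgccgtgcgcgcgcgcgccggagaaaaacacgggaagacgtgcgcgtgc
EPAS1: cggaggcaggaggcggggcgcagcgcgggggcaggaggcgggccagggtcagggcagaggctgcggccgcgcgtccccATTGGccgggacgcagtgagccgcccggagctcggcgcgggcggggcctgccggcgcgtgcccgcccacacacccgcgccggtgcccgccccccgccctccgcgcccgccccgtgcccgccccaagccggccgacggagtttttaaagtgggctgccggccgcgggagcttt

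The LTBP1 window holds a cAMP response element with a CCAAT box on either side of it, the RIF1, SPAST and EPAS1 windows each hold a CCAAT box, and the TRIB2 window holds none of these letters. Over the members, 5 of 102 promoters held the AP-1 letters (4.90%, in CASP8, FEZ2, GLI2 and RTN4), against 6.57% of all 35116 promoters. The cAMP response element was found in 2 (1.96% against 1.65%), the CCAAT box in 31 (30.4% against 32.01%) and the TATA box in 5 (4.90% against 10.7%). The E-box was found in 14 of the 102 (13.7% against 6.34%), in 12 members that include ADI1, which rose, and SSB, HSPD1 and XPO1, which fell. The GC content of the members' promoters had a median of 66.4%, against 58% over all promoters. These matches are a description of the letters in the windows.

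The members that were higher are few. ADI1, an enzyme of the methionine salvage pathway, had a TPM of 21.8, 23.5 and 23.7 in WT and 27.2, 31.2 and 27.1 in DKK1-SE-KO, without overlap. Its log2 fold change was 0.47 (standard error 0.122, edgeR adjusted p = 0.0115) and 0.59 with the GC-content offset. EPAS1, the oxygen-regulated transcription factor HIF-2 alpha, had a TPM of 10.01, 10.45 and 10.45 in WT and 13.04, 9.74 and 16.2 in DKK1-SE-KO, where replicate 2 lay below the WT samples. By counts it rose with a log2 fold change of 0.46 (standard error 0.125, edgeR adjusted p = 0.0143), but it was not called with the GC-content offset (0.26, edgeR adjusted p = 0.0722). Neither gene was called higher by limma on log2 TPM or by edgeR without WT replicate 1. The number of members called higher by edgeR was 1 without WT replicate 2 or without DKK1-SE-KO replicate 2, and 4 without DKK1-SE-KO replicate 3. ADI1 starts 38.8 kb from RNASEH1, the nuclease that removes RNA from RNA-DNA hybrids, which had a log2 fold change of -0.28 (edgeR adjusted p = 0.0528) and shares 16904 bp with ENSG00000286905 on the same strand, a gene that rose (1.64).

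The other members with the highest log2 fold changes did not pass the test. EIF2B4, a subunit of the exchange factor of translation initiation, had a TPM of 26.5, 20.9 and 24.9 in WT and 25.9, 27.5 and 27.04 in DKK1-SE-KO (0.36, edgeR adjusted p = 0.0536), with overlap between the groups. It overlaps GTF3C2-AS2 on the opposite strand. The small GTPase RHOB had a TPM of 15.5, 18.01 and 19.8 in WT and 21.9, 17.7 and 16.8 in DKK1-SE-KO (0.25). The DKK1-SE-KO TPM of HS1BP3, a phosphoinositide-binding regulator of autophagy, was 14.8, 13.1 and 13.5, above its WT values of 12.2, 12.1 and 12.9 (0.22). ODC1, which makes the polyamine putrescine, was nearly level in TPM at 131, 132 and 131 in WT and 126, 131 and 136 in DKK1-SE-KO (0.15). The integrin regulator ITGB1BP1 had a TPM of 39.9, 41.1 and 38.2 in WT and 39.1, 47.2 and 49.5 in DKK1-SE-KO (0.12). It was called higher with the offset (0.27), but not with the offset and the replicate block together. EMILIN1, an elastic fibre glycoprotein, had a TPM of 0.14, 0.30 and 0.17 in WT and 0.42, 0.20 and 0.39 in DKK1-SE-KO. The offset gave 0.25 for EIF2B4, -0.013 for RHOB, 0.03 for HS1BP3, 0.08 for ODC1 and 0.12 for EMILIN1, none of them called.

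The 4 members nearest to no difference were EIPR1, NBAS, NCOA1 and RAB10. RAB10, a GTPase of membrane traffic, had a TPM of 96.4, 98.7 and 85.8 in WT and 85.1, 103.5 and 104.0 in DKK1-SE-KO (log2 fold change 0.06), and was called higher with the GC-content offset (0.29). NBAS, which tethers Golgi vesicles at the endoplasmic reticulum, had a TPM of 11.7, 10.5 and 14.3 in WT and 10.98, 11.1 and 11.3 in DKK1-SE-KO (0.05). The coactivator of nuclear receptors NCOA1 had a TPM of 4.27, 4.66 and 5.62 in WT and 3.43, 3.87 and 5.60 in DKK1-SE-KO (0.06). EIPR1, a partner of endosomal tethering complexes, had a TPM of 19.6, 17.8 and 20.4 in WT and 18.9, 18.01 and 14.4 in DKK1-SE-KO (-0.01). The groups overlapped for each of these, and all 4 lie in the first 30 Mb, where the other genes had a median of 0.15. The offset gave -0.25 for EIPR1 and 0.18 for both NBAS and NCOA1, none of them called.

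The members were then grouped by their known roles, a grouping made with their values known. For the counts in these groups, 35 of all 58 members fell. Of the 917 other tested genes of chromosome 2, 407 were lower, as were 19.5% of all tested genes. Whether any role differed from the other members was not tested. Among the 7 members that maintain the genome, 5 fell and all were negative (median log2 fold change -0.54, and -0.27 with the GC-content offset). SMC6, a core subunit of the SMC5/6 complex that acts on recombination intermediates, had a TPM of 10.9, 11.3 and 10.3 in WT and 2.33, 4.25 and 7.55 in DKK1-SE-KO, a wide spread without overlap (log2 fold change -1.07, standard error 0.248, edgeR adjusted p = 0.00617). It overlaps GEN1 on the opposite strand (-0.65). XRCC5, the larger subunit of the Ku heterodimer that binds broken DNA ends, was among the most abundant members, with a TPM of 184, 197 and 182 in WT and 98.9, 114 and 136 in DKK1-SE-KO (-0.54). The mismatch repair gene MSH6 (-0.55) and the origin recognition subunit ORC4 (-0.50, and -0.09 with the GC-content offset, where it was not called) also fell, whereas the TFIIH helicase ERCC3 (-0.21) and RNASEH1 (-0.28) did not pass the test. The offset gave -0.63 for SMC6, -0.46 for XRCC5 and -0.27 for MSH6.

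Of the 9 members for RNA and protein production, 5 fell (median -0.65, and -0.34 with the GC-content offset). NCL, the nucleolar protein nucleolin, had the highest WT level of the members, with a TPM of 782, 834 and 786 in WT and 364, 389 and 529 in DKK1-SE-KO, far below WT in each replicate (log2 fold change -0.77, standard error 0.111, edgeR adjusted p = 0.000417). HSPD1, the mitochondrial chaperonin HSP60, had a TPM of 514, 589.9 and 532 in WT and 198, 229 and 324 in DKK1-SE-KO (-0.94). Every DKK1-SE-KO value of these genes was below every WT value. SSB, the La protein that binds new RNA polymerase III transcripts, had a TPM of 109, 115 and 102 in WT and 36.2, 49.2 and 63.1 in DKK1-SE-KO (-0.98). The nuclear export receptor XPO1 (-0.79) and the splicing factor SF3B1 (-0.65) fell as well. The helicase DDX1 (-0.17), the nucleolar protein NOL10 (-0.25), EIF2B4 and THADA (-0.22), which acts in tRNA methylation, did not pass the test, and DDX1 was called higher with the offset (0.28), where THADA was positive (0.14). The other offset values were -0.62 for NCL, -0.59 for HSPD1, -0.67 for SSB, -0.40 for XPO1 and -0.34 for SF3B1, each still called lower.

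Of the 9 members for chromatin and transcription, 5 fell and 1, EPAS1, rose (median -0.46, and -0.37 with the GC-content offset). HAT1, which acetylates newly made histone H4, had a log2 fold change of -0.84, and the cAMP-responsive factor CREB1 one of -0.83. The Hedgehog effector GLI2 (-0.73), the bromodomain ATPase ATAD2B (-0.69) and the stress-responsive factor ATF2 (-0.46) fell too. The offset gave log2 fold changes of 0.01 for ATF2, -1.04 for GLI2, -0.62 for HAT1, -0.37 for CREB1 and -0.41 for ATAD2B. The deacetylase HDAC4 (-0.30, called lower with the offset at -0.48), the DNA methyltransferase DNMT3A (-0.07) and NCOA1 were not called. CREB1 overlaps METTL21A (-0.69) and HAT1 overlaps SLC25A12 (-0.39), both on the opposite strand.

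Among the 7 signalling members 6 fell, with RHOB as the exception (median -0.74, and -0.50 with the GC-content offset). After TRIB2, these were the Ras exchange factor SOS1 (-0.92), the kinase ROCK2 (-0.88), the catalytic phosphatase subunit PPP1CB (-0.74), the neurotrophin-receptor scaffold KIDINS220 (-0.53) and the receptor kinase MERTK (-0.48). ROCK2 and PPP1CB differed from their neighbours by -0.83 and -0.74 on the log2 scale, while MERTK had nearly their value. For PPP1CB this difference was -0.25 with the offset and -0.51 against the nearest 20 genes on either side, and for ROCK2 it was -0.64 and -0.83. The log2 fold changes with the offset were -0.64 for SOS1, -0.61 for ROCK2, -0.30 for PPP1CB and -0.40 for KIDINS220. The mean TPM of ROCK2 was 9.05 ± 0.730 in WT and 4.34 ± 1.80 in DKK1-SE-KO (SD, n = 3).

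In the group of 13 members for the cytoskeleton and membrane traffic, 7 fell (median -0.44, and -0.28 with the GC-content offset). RTN4, a reticulon that shapes the endoplasmic reticulum and inhibits axon growth, had a TPM of 447, 481 and 482 in WT and 274, 262 and 338 in DKK1-SE-KO (-0.55), among the most abundant members. Spectrin beta SPTBN1 (-0.60), the microtubule-binding EML4 (-0.67), FEZ2, a kinesin adaptor (-0.73), and TTC21B, a subunit of the intraflagellar transport complex A (-0.86), fell with SPAST and ASAP2, an ARF GTPase-activating protein (-0.44). The offset gave -0.28 for FEZ2, -0.46 for TTC21B and -0.43 for EML4. RTN4 and SPTBN1 lay above their local median of -0.78, by 0.22 and 0.17, but with the GC-content offset they differed from it by 0.09 and -0.21. BIN1, which bends membranes (0.10), and AAK1, an adaptor kinase of clathrin coats (-0.11), were not called and lay 0.34 and 0.41 above their neighbours. The offset gave 0.17 and 0.59 for these differences. BIN1 was called lower with the offset (-0.23), but not with the offset and the replicate block together. FEZ2 overlaps CRIM1 (-0.77), AAK1 overlaps ANXA4 (-0.53), and ASAP2 shares 2209 bp with ITGB1BP1, each on the opposite strand.

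Of the 4 members of the ubiquitin and cell death group 3 fell (median -0.53, and -0.22 with the GC-content offset). BIRC6, a large ubiquitin ligase that inhibits apoptosis, had a TPM of 25.6, 22.2 and 24.1 in WT and 6.54, 10.2 and 18.4 in DKK1-SE-KO, a broad spread that still lay below WT (log2 fold change -1.03, standard error 0.187, edgeR adjusted p = 0.00153). The cullin scaffold CUL3 (-0.53) and the initiator caspase CASP8 (-0.52) fell, and the F-box protein FBXO11 (-0.31) was not called. With the offset CUL3 was not called (-0.06), FBXO11 was positive (0.17), and CASP8 had -0.38. In the group for matrix and cell surface, LTBP1 and MGAT5, which branches N-glycans (-0.59), fell out of 5 members. Of the 4 metabolic members ADI1 rose, IDH1 and QPCT fell and ODC1 was not called, and IDH1 was not called with the offset either. QPCT, which forms pyroglutamate at the start of peptides, had a TPM of 23.2, 19.1 and 17.5 in WT and 8.51, 7.56 and 8.66 in DKK1-SE-KO, without overlap (-1.13, standard error 0.154, edgeR adjusted p = 0.000273).

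Members that work in complexes or small families were set beside 74 partners listed with earlier results known, 68 of them on other chromosomes. Of these 68, 15 were lower (19.5% of all tested genes were) and 6 higher (19.8%) at an adjusted p-value under 0.05 in edgeR's test, with a median log2 fold change of -0.02. The 26 members to which they belong had 19 lower and 1 higher, with a median of -0.54, and 20 of the 26 lay below the median of their own partners. With the GC-content offset these medians were -0.04 and -0.36. In the SF3B complex SF3B1 fell (-0.65) while SF3B3 (0.35) and SF3B4 (0.38) rose. SF3B3 was not called higher in 7 of the 16 alternatives and SF3B4 in 9, among them limma on log2 TPM and the fits without DKK1-SE-KO replicate 1 or without any one WT replicate, and SF3B4 had 0.19 with the GC-content offset. The export receptor XPO1 (-0.79) stood beside its cofactors RAN (-0.01) and RANBP1 (-0.04), and XRCC5 (-0.54) beside XRCC6 (-0.02), the other subunit of Ku. The offset gave 0.29 for RAN and -0.30 for RANBP1, which were then called, and -0.14 for XRCC6. RAN was not called with the offset and the replicate block together.

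Some partners on other chromosomes moved in the direction of the member. ROCK1, the paralog of ROCK2, fell with a log2 fold change of -0.95, SMC5 with -0.91, SOS2 with -0.63 and the CREB relative CREM with -1.40. The GC-content offset gave -0.56, -0.48, -0.34 and -1.30 for these. CREM, like the partner NSMCE4A, lies on chromosome 10, whose tested genes had a median of -0.32 (-0.31 with the offset). SMC5 was not called by limma on log2 TPM, and SOS2 was not without WT replicate 2. In other families TYRO3 rose (0.51) beside MERTK, DNMT3B rose (0.86) while DNMT3A was not called, and HDAC5 rose (0.61) while HDAC9 fell (-0.45). None of TYRO3, DNMT3B, HDAC5 and HDAC9 was called by limma on log2 TPM. HDAC5 and HDAC9 were also not called with the offset (0.32 and -0.16) or without WT replicate 1. Among the GLI factors GLI3 had the largest fall (-2.46), and GLI1 was not called (-0.06). The polyamine gene AMD1 fell (-0.61, and -0.26 with the offset), and ODC1 did not. Of the 6 partners on chromosome 2 itself, CASP10 was not tested, and ORC2 fell (-0.86, and -0.55 with the offset) beside ORC4. Other partners that fell include LIG4 and NSMCE4A, whose call was kept in each of the 16 alternatives. The offset left XRCC4 (-0.55), GTF2H2 (-0.43), GTF2H5 (-0.64) and NPM1 (-0.49) without a call, at -0.09, -0.11, -0.27 and -0.08. Without WT replicate 2 XRCC4, GTF2H2, NPM1, PMS2 and ARNT were not called, and GTF2H2, PMS2 (-0.29) and ARNT (0.35) lost the call in 9, 7 and 8 of the 16 alternatives, among them the fits without WT replicate 1 or 3. Leaving out WT replicate 1 had this effect for XRCC4 too, DKK1-SE-KO replicate 1 for GTF2H2 and PMS2, and DKK1-SE-KO replicate 2 for PMS2.

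Neighbouring members did not always share a value. SPAST, BIRC6 and LTBP1 follow one another on 2p and had log2 fold changes of -1.24, -1.03 and -1.76. NBAS (0.05) and DDX1 (-0.17) start 29.8 kb apart, and BIN1 (0.10) and ERCC3 (-0.21) 187 kb apart. MSH6 (-0.55) and FBXO11 (-0.31), which overlap by 20748 bp, start 211 kb apart. Standard errors in these pairs were 0.106 to 0.144, only MSH6 was called without the offset, and the differences within pairs were not tested. With the GC-content offset NBAS and DDX1 had 0.18 and 0.28, BIN1 and ERCC3 -0.23 and -0.21, and MSH6 and FBXO11 -0.27 and 0.17. HSPD1 lies on the opposite strand from HSPE1, the gene of the co-chaperonin HSP10. HSPE1 had a TPM of 868, 635 and 595 in WT and 333, 552 and 397 in DKK1-SE-KO, without overlap, and its log2 fold change was -0.52 (edgeR adjusted p = 0.0561), beside -0.94 for HSPD1. It was called lower in 10 of the 16 alternatives and had -0.02 with the GC-content offset. In the annotation all 3310 bp of HSPE1 lie within the span of HSPD1, and the annotated starts of this pair are 16.6 kb apart. Whether reads of HSPE1 were told apart from those of HSPD1 is therefore not known. Further overlaps on opposite strands, where reads cannot be told apart without knowing how strand was used, are those of HSPD1 with MOB4 (-0.79), SSB with METTL5 (-0.38), XPO1 with USP34-DT (-0.33), PPP1CB with PPP1CB-DT (-0.25) and ORC4 with ACVR2A (-0.53) and MBD5 (-0.16). BIRC6 overlaps ENSG00000276334 and ENSG00000276517, both noncoding genes on its own strand. SF3B1 starts 81.7 kb from HSPD1 and had a log2 fold change of -0.65.

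Among the other tested genes of chromosome 2 some differences were larger than those of the members. Among those whose TPM did not overlap between the groups, the 5 lower genes with the smallest p-values were SCN9A, a sodium channel of sensory neurons (-4.38), NCKAP5 (-4.002), the IGF-binding protein IGFBP2 (-3.20), the ubiquitin ligase MARCHF4 (-1.71) and ST3GAL5, which makes the ganglioside GM3 (-1.63). IGFBP2 had a TPM of 87.1, 82.6 and 85.03 in WT and 9.59, 8.63 and 6.85 in DKK1-SE-KO. SCN9A had a TPM of 6.86, 5.33 and 5.04 in WT and 0.64, 0.15 and 0.64 in DKK1-SE-KO, and NCKAP5 one of 2.55, 2.63 and 2.54 in WT and 0.13, 0.09 and 0.14 in DKK1-SE-KO. The TPM of MARCHF4 was 26.4, 31.01 and 29.55 in WT and 8.11, 7.33 and 8.50 in DKK1-SE-KO, and that of ST3GAL5 37.3, 42.2 and 40.3 in WT and 11.3, 11.2 and 12.4 in DKK1-SE-KO. The 5 higher genes were IL1RL1, the collagen genes COL5A2 and COL3A1 (1.42), DPYSL5 and HOXD13. COL5A2 had a TPM of 62.1, 62.1 and 61.2 in WT and 134, 127 and 171 in DKK1-SE-KO (1.30), against the direction of the stretch it lies in. COL3A1 had 152, 93 and 114 counts in WT and 262, 316 and 299 in DKK1-SE-KO. HOXD13, a homeobox factor of limb development, had 0 counts in each WT sample and 60, 98 and 42 in DKK1-SE-KO, at least 23.5-fold higher against a floor of 3 counts per WT library. DPYSL5 had 2, 0 and 0 counts in WT and 46, 44 and 58 in DKK1-SE-KO, and IL1RL1, the receptor of interleukin-33, had 2, 3 and 5 in WT and 74, 124 and 102 in DKK1-SE-KO.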

How the data were processed

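RNA of 3 WT and 3 DKK1-SE-KO samples of PANC-1 cells was sequenced as stranded mRNA libraries. For each gene and sample the deposited table gives an expected count and, scaled by transcript length and library total by the authors, a TPM. The genome was hg38 per the submitters' processing notes. The aligner, the counting program and whether counting used strand are not given in the sources used here. The authors' own comparison columns (fold changes and p-values) were not used. Samples were grouped by their labels, which call them biological replicates. Those of DKK1-SE-KO came from a single subclone, so p-values measure the spread between these samples and not between clones.

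Expected counts were rounded to whole numbers, filtered with filterByExpr (minimum count 10), scaled with TMM factors and tested with edgeR 4.0.16 (quasi-likelihood F test, R 4.3.3) without a replicate block, with Benjamini-Hochberg adjustment over 15179 genes. Standard errors are the absolute log2 fold change divided by the square root of F. Group differences are DKK1-SE-KO over WT. The study's limits, 0.05 on the raw p-value and 1.2 on the fold change, were applied with 1.2 on the log2 scale, and in an alternative chosen after seeing the data with 1.2 on the linear scale. Gene positions, transcript lengths and GC content (longest transcript) came from GENCODE version 44, which did not place 78 of 62703 identifiers. The arms were divided at 94 Mb. Local medians used 5 Mb on either side, in an alternative chosen after seeing the data the nearest 20 other genes on either side, and the running median 41 genes. The GC-content offset was the median deviation of each library in 40 bins of GC content. Promoters of 250 bases came from RefSeq. The fit was tested on simulated data, and tables were summarised with Python 3.11.15.

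Values in each sample were given for the 8 lowest and 8 highest members, the 4 nearest 0, the 4 with the highest mean TPM in WT, and, among other chromosome 2 genes without overlap, the 5 lower and 5 higher by smallest p-value. The members, the partner, marker and role lists and the named alternatives were chosen with earlier results of these data known, and the stretches of the chromosome after its values were seen. Alternatives were RLE size factors, library size alone, TMM factors from other chromosomes, no filter, DESeq2 1.42.0, limma 3.58.1 on log2(TPM + 1) and log2(TPM + 0.1), the replicate block, the GC-content offset with and without that block, and leaving out each sample, which makes 16, beside the linear scale of the fold limit. Values of some partner genes are not reported here.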

Additional observations from a re-analysis of the deposited data

How the results depend on the processing

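Of the 37 called members, 26 kept the call in every alternative, and 1 (ATF2) changed sign. Shares of all tested genes called were not computed for the alternatives, so the counts of members below stand without them. The number of lower members was 29 to 41 when 1 sample was left out (29 without WT replicate 2 and without DKK1-SE-KO replicate 2, 41 without DKK1-SE-KO replicate 3), the number of higher members 0 to 4, and the number past the limits on the log2 scale 3 to 6. Higher members numbered 4 with the GC-content offset, 3 with the block added to it and 0 with limma on either TPM scale. On log2(TPM + 1), where TRIB2 had -0.99, 2 members passed those limits. With 1.2 read as a linear fold change, chosen after seeing the data, 41 passed, since that limit is smaller. On log2(TPM + 0.1) and log2(TPM + 1) the median of all genes moved by -0.14 and -0.11.

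The median of the members was -0.36 with the GC-content offset, with or without the block, and -0.65 to -0.46 with 1 sample left out. For the other chromosome 2 genes it was -0.30 with the GC-content offset (-0.31 with the block added), -0.46 with library size alone, -0.48 on log2(TPM + 0.1), -0.27 without a filter, -0.36 over genes outside the log2 limits, and -0.43 to -0.35 with 1 sample left out. The same settings gave -0.31, -0.46, -0.52 and -0.29 for 2p (-0.44 to -0.37 with 1 sample left out). For 2q they gave -0.30, -0.46, -0.47 and -0.25 (-0.43 to -0.34). From 0 to 30 Mb the GC-content offset gave -0.017. The cause was not tested.

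The GC-content offset, without and with the block, changed the sign of DDX1 (0.28 in both), RHOB (-0.013 and -0.014), THADA (0.14 in both), FBXO11 (0.17 in both), AAK1 (0.085 and 0.081), BIN1 (-0.23 in both), ATF2 (0.014 and 0.016) and the partner RAN (0.29 and 0.28). Library size alone changed that of NBAS (-0.017), NCOA1 (-0.00734) and RAB10 (-0.0094). On log2(TPM + 0.1) it changed for ODC1 (-0.0054), NBAS (-0.11) and NCOA1 (-0.19), and on log2(TPM + 1) for these (-0.0054, -0.10 and -0.16) and TNS1 (0.013). These scales gave 0.14 in both for RAN, and 0.41 and 0.29 for GLI1. When each sample was left out in turn, values ran from -0.14 to 0.11 for EIPR1, -0.0094 to 0.068 for NBAS, -0.070 to 0.13 for NCOA1, -0.15 to 0.0073 for DNMT3A, -0.015 to 0.19 for BIN1, -0.095 to 0.026 for RAN, -0.092 to 0.015 for RANBP1, -0.091 to 0.0040 for XRCC6 and -0.31 to 0.095 for GLI1. The causes were not tested.

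With the replicate number as a block, 34 members were lower, 2 higher and 4 past the log2 limits, with a median of -0.55. Deviations of samples with the same number had correlations across genes of -0.12 to -0.07, against -0.05 to 0.15 for different numbers, so the numbers were not used as a pairing. For TNS1 and EMILIN1, with at most 21 counts per sample, no difference was detectable at this depth.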
